A study of Mus musculus with 13 samples.

Results

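Translation initiation and elongation factors are the proteins that bring ribosome, messenger RNA and tRNA together and move the ribosome along the message. The genes described here were taken by name, and the family was chosen with earlier results of these data known. They are the rows of the deposited count table whose symbols start with Eif1 to Eif6 or with Eef1 or Eef2. Pseudogene names and the sex-linked pair Eif2s3x and Eif2s3y were left out. This gave 69 genes of 27111 named genes, of which 64 had enough reads to enter the fit of 14421 genes. Besides the factors, the names take in enzymes that modify them, such as the eIF2 kinases, the eEF2 kinase and the lysine methyltransferases of eEF1A and eEF2.

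The RNA came from Sertoli cells, the somatic cells that nurse germ cells in the seminiferous tubule, sorted from testes of adult C57Bl/6J males (genotype "Bl6 wt"). In the MSUS group (maternal separation with unpredictable maternal stress, 7 males), the stress fell on the pups and their dams in the first 14 days of life, through irregular daily separations of 3 h in which the dams were also made to swim (5 min) or were restrained (20 min). The control group (6 males) had no such separations. No agent and no altered allele was used in either group, each library is 1 animal, and sorting kept diploid, large cells with a strong MitoTracker signal, so the libraries hold an enriched fraction and not pure cells. The comparison asks whether transcript levels in adult Sertoli cells differ after the early stress. Animals are named here by group and animal number.

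Initiation starts when eIF2 carries the initiator tRNA to the small ribosomal subunit, where eIF1, eIF1A, eIF3 and eIF5 help it find the start codon. The eIF4 factors bind the cap of the message, and eIF4E-binding proteins hold the cap-binding factor back. eIF2B recharges eIF2, stress kinases block this step by phosphorylating eIF2, and elongation then runs on eEF1A, which delivers tRNAs, and eEF2, which moves the ribosome. Many mRNAs of elongation factors and of all ribosomal proteins begin with a run of pyrimidines, the TOP motif (terminal oligopyrimidine), through which their translation is controlled together.

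The control libraries held 13087203 to 18649945 counts each and the MSUS libraries 12701776 to 15693938. The defining Sertoli markers Clu, Ctsl, Amhr2, Sox9 and Rhox5 were abundant in every library, with a mean level of 10.05 to 10.32 log2 CPM in controls and 10.03 to 10.29 in MSUS. CPM are counts relative to the size of the library, here scaled by TMM, a method that sets libraries to a common baseline. Transcripts of elongated spermatids (4 of 4 markers detected) had mean levels of 7.50 to 8.15 in controls and 7.26 to 8.55 in MSUS. Transcripts of other testis cells were detected too. The mean level of the Leydig cell markers was 1.35 to 3.18 in controls and 2.39 to 3.41 in MSUS, that of endothelial markers 3.79 to 4.23 and 3.81 to 4.21, and that of peritubular myoid markers 0.26 to 3.27 and 0.77 to 3.96. Spermatocyte and round spermatid markers had 4.99 to 5.30 and 4.73 to 5.85. The 4 macrophage markers stood at 0 to 10 counts per library. No marker list passed an exact permutation test between groups at 0.05, and the part of these cells in the members' values was not tested beyond the fit with the elongated spermatid level. Since these are bulk samples, fewer cells of a type and less RNA per cell cannot be told apart.

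Of the 69 members, 52 had a start site in RefSeq's promoter table (GRCm38.p6), and 6 of them are shown as windows from 10 bases before the annotated start to 20 bases from it, on the strand of the gene. The first 4 belong to the list of 8 members known as TOP mRNAs, and the last 2, from long transcripts, serve as contrast because their levels ran against those of the ribosomal protein genes. Capitals mark a C followed by an unbroken run of at least 4 bases that are C or T. The windows lie at chr9:78481705-78481734 (minus strand, Eef1a1), chr10:81176621-81176650 (plus, Eef2), chr1:63176821-63176850 (plus, Eef1b2), chr7:108934405-108934434 (plus, Eif3f), chr16:20672717-20672746 (plus, Eif4g1) and chr19:60790674-60790703 (minus, Eif3a).
Eef1a1: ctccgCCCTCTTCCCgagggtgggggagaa
Eef2: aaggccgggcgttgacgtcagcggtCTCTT
Eef1b2: ctgcagttccgccggaagtagccgaggcct
Eif3f: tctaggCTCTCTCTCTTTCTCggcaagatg
Eif4g1: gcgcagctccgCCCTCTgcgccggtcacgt
Eif3a: ctcgggcggcggcgctgccgccgcgaggga

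Read from the annotated start base onward, such a run stood in Eif3f only, 1 of 67 windows of members (1.49%), against 2.51% of all 32851 windows. A run anywhere in the window was found in 24 of the 67 windows of members (35.8%) and in 35.8% of all windows. Only the strand of the gene, as printed here, was searched. These counts describe letters around an annotated start, which need not be the start used in Sertoli cells.

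The members together took 0.908% to 0.960% of the named counts in controls and 0.865% to 0.957% in MSUS. The most abundant was Eef1a1 (chr9:78478449-78489151, minus strand), which encodes the tRNA-delivering factor eEF1A1, with 1094 ± 96.6 CPM (SD, n = 6) in controls and 9450 to 14361 counts per library. Per kilobase of transcript it stood at 610 ± 53.9 CPM, ahead of Eef2, the translocation factor, at 308 ± 14.4, and of Eif5a, a factor that helps ribosomes through difficult peptide bonds, at 188 ± 17.2. The level of Eef2 lay outside the spread of both neighbours in this order.

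**Figure D1:**
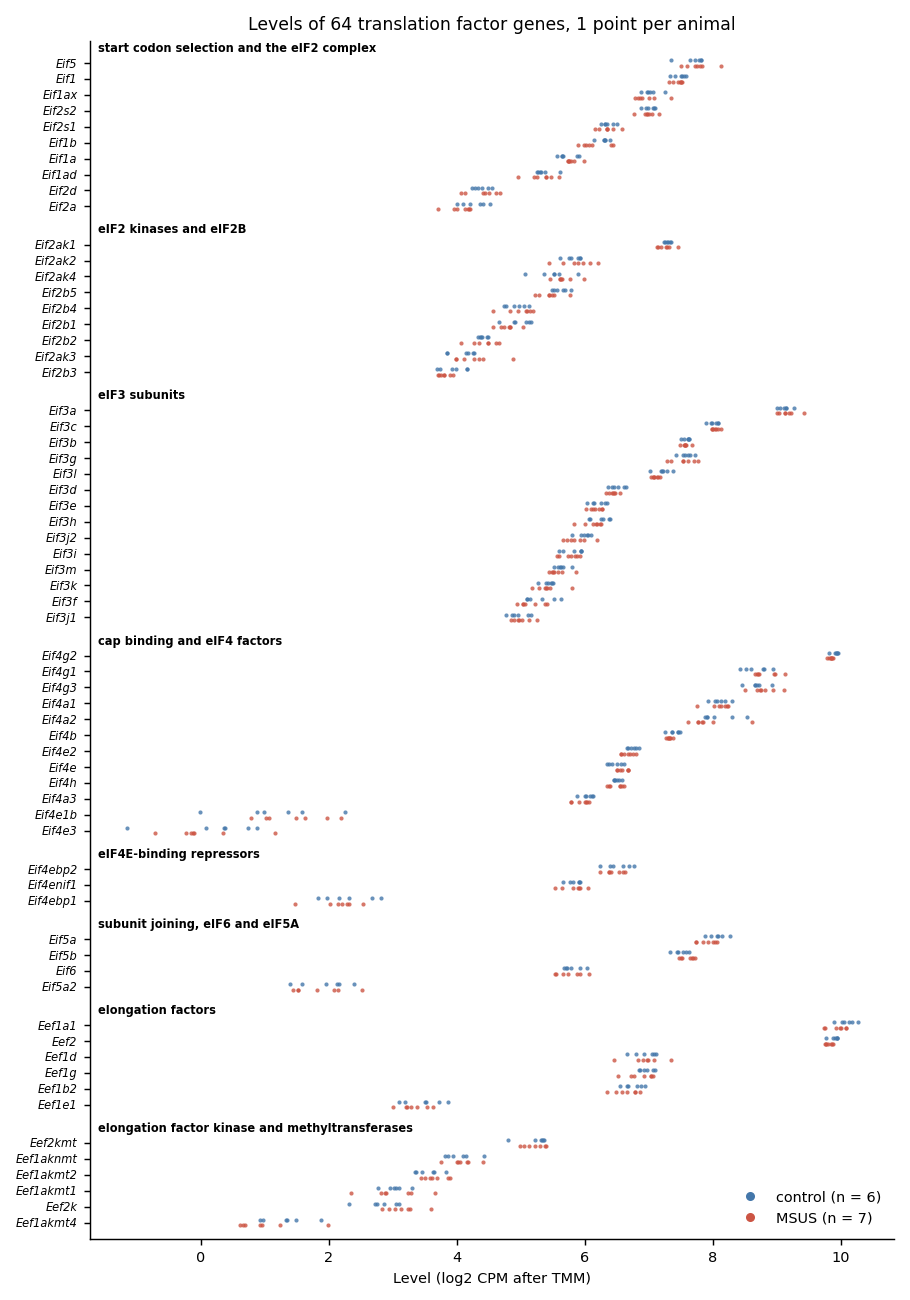
Level of each of the 64 members in log2 CPM (x axis), in rows grouped by role and ordered by mean level, with 1 point per animal (blue: 6 controls, red: 7 MSUS males). Most members sit between 4 and 10, and Eif4e3, Eif4e1b, Eef1akmt4, Eif5a2 and Eif4ebp1 are the lowest; the groups overlap in every row.

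The 14 eIF3 subunits, which form the scaffold on the small ribosomal subunit, spanned 5.73 ± 0.60 CPM per kb (Eif3j1) to 174 ± 12.6 (Eif3g) in controls. Eif3a, the largest scaffold subunit, stood at 109 ± 7.04. Values per kilobase divide by the longest annotated coding transcript, which need not be the form present in these cells. Of the cap-binding proteins, Eif4e2 (30.8 ± 1.64 CPM per kb) was above Eif4e (17.8 ± 1.31), the canonical cap-binding factor. Before division by their lengths (3473 and 4991 bases) they stood at 107 ± 5.68 and 88.8 ± 6.55 CPM. The product of Eif4e2, 4EHP, binds the cap without recruiting the scaffold protein eIF4G. Eif4g2, the eIF4G relative that lacks the eIF4E-binding region, was above Eif4g1 per kilobase in controls. The ratio of Eif4g1 to Eif4g2 was 0.494 to 0.767 over the control libraries. In the same control libraries Eif5a exceeded its paralog Eif5a2 by 173-fold to 389-fold per kilobase.

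Not all members had enough reads to enter the fit. Eef1a2, the muscle and nerve form of eEF1A, had 0 counts in 10 of 13 libraries and at most 4 counts, and a count of 0 allows up to 0.261 CPM. Eif4ebp3 (0 to 7 counts), Eif4a3l1 (0 to 3) and Eef1akmt3 (3 to 19) also stayed out of the fit. The readthrough Eef1akmt4.ece2 (0 to 22 counts) did too, and reads of Eef1akmt4 can be split with it. Counts of Eif1a with Eif1ax, Eif3j1 with Eif3j2 and Eef1a1 with its processed pseudogenes are uncertain, because near-identical copies can share reads.

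Between MSUS and control animals, 3 of the 64 members had an unadjusted p below 0.05, 1 higher and 2 lower. Over all genes tested the share was 5.42%, with 3.02% higher and 2.4% lower, so that the members' count was close to the background. With adjustment over all genes, 0 members passed, as did 0% of all genes (limma, smallest adjusted p of a member 0.878). edgeR's quasi-likelihood test and DESeq2's Wald test each gave 2 members at an unadjusted p below 0.05, Eif5a and Eef2k. The shares of all genes were 5.5% and 5.79%. After adjustment each gave 0 members and 0 of all genes. The fold change was below 0 in 44 of 64 members, against 50.5% of all genes, and the median was -0.04 on the log2 scale against -0.0018 for all genes. In no member did the groups separate completely, which 0.132% of all genes did.

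**Figure D2:**
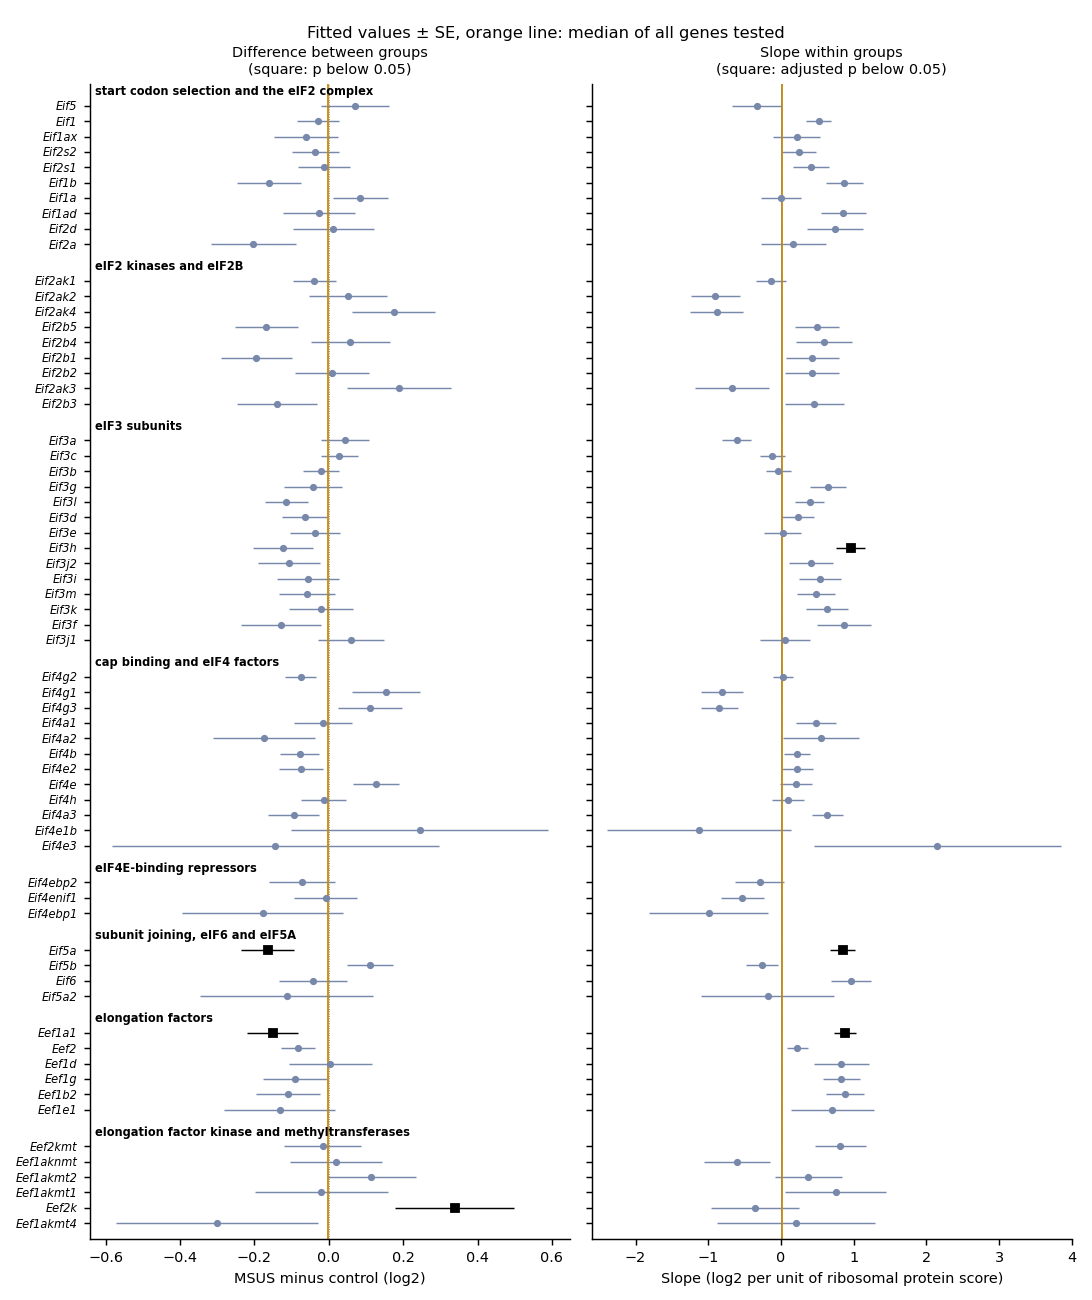
Left, difference between groups (MSUS minus control, log2, ± SE) and right, slope on the ribosomal protein score within groups (log2 per unit of score, ± SE) for the 64 members, grouped by role; the orange line is the median of all genes tested. Squares mark an unadjusted p below 0.05 on the left (Eif5a, Eef1a1, Eef2k) and an adjusted p below 0.05 on the right (Eef1a1, Eif5a, Eif3h).

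Among the elongation factors, Eef1a1 had levels of 9.90, 10.09 and 10.27 log2 CPM in controls (lowest, median, highest) and 9.74, 9.99 and 10.09 in MSUS animals. All 7 MSUS animals lay below the control mean and 2 of them below every control. The log2 fold change was -0.15 (SE 0.07, limma, unadjusted p below 0.05, adjusted p = 0.878). Eef2 had 9.77, 9.92 and 9.95 in controls and 9.75, 9.80 and 9.87 in MSUS, again with all 7 MSUS animals below the control mean, but the difference of -0.08 (SE 0.05) stayed above 0.05 before adjustment. The exchange factor subunits that reload eEF1A moved less evenly: the fitted differences were -0.11 for Eef1b2, -0.09 for Eef1g and 0.0043 for Eef1d (SE 0.09, 0.09 and 0.11). Over the 6 elongation factors in the fit the median was -0.10.

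Eif5a had 7.89, 8.08 and 8.26 log2 CPM in controls and 7.74, 7.92 and 8.06 in MSUS, with all 7 MSUS animals below the control mean and 3 below every control. Its log2 fold change of -0.16 (SE 0.07, limma, adjusted p = 0.878) had the smallest p of the members. The paralog Eif5a2 (control median 2.03, MSUS median 1.81) had counts too low for a narrow estimate, with a difference of -0.11 and an SE of 0.23. Eif6, which keeps the large subunit from joining too early, differed by -0.04 (SE 0.09). Eif5b, the GTPase that joins the ribosomal subunits, was on the other side, at 7.33 to 7.62 in controls and 7.47 to 7.72 in MSUS, with 4 of 7 MSUS animals above every control and a difference of 0.11 (SE 0.06, limma adjusted p = 0.878).

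Eef2k encodes the kinase that inactivates eEF2. It stood at 2.31, 2.80 and 3.10 log2 CPM in controls and 2.82, 3.13 and 3.60 in MSUS, and all 7 MSUS animals were above the control mean, 4 of them above every control. The log2 fold change was 0.34 (SE 0.16, limma, unadjusted p just below 0.05, adjusted p = 0.878), on 47 to 138 counts per library. Of the methyltransferases, Eef2kmt (eEF2 lysine) differed by -0.02 (SE 0.10), Eef1akmt2 by 0.11 (SE 0.12) and Eef1aknmt by 0.02 (SE 0.12). Eef1akmt4 had the lowest value of all members, -0.30, with an SE of 0.27.

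The calls at an unadjusted p below 0.05 depended on single libraries. Without control 24 or without MSUS 1, 0 members remained below 0.05, beside 4.4% and 5.42% of all genes. Without control 9, without MSUS 5 or without MSUS 26, only Eif4e was below it, beside 3.78%, 3.74% and 5.02% of all genes. Without control 14 it was Eif2b1 alone, beside 4.69%. Without control 10 or control 22 there were 7 members, beside 7.7% and 5.53% of all genes, and without MSUS 23 there were 6, beside 6.1% of all genes. With the ribosomal protein score as a covariate, the differences of Eef1a1 and Eif5a came to -0.06 and -0.07. In that fit all 3 members were above 0.05 and Eif4e came below it, beside 3.68% of all genes. With the elongated spermatid level as a covariate there were 8 members, Eef1a1 and Eif5a among them, while the share of all genes was 8.35%. Scaling by library size alone gave 6 members, among them Eef1a1 and Eif5a, all lower in MSUS, beside 5.51% of all genes.

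Of the 14 eIF3 subunits, 0 had an unadjusted p below 0.05. The fold change was below 0 in 11 of them, beside 50.5% of all genes, with a median of -0.05. Genes share libraries and are not replicates. Eif3l had the smallest p in this complex (7.02 to 7.37 in controls, 7.04 to 7.18 in MSUS, difference -0.11, SE 0.06, limma adjusted p = 0.878). The core subunits were tightly placed: Eif3b ranged over 7.51 to 7.63 in controls and 7.49 to 7.67 in MSUS, and its difference was -0.02 (SE 0.05). Eif3c differed by 0.03 (SE 0.05) and Eif3a by 0.04 (SE 0.07).

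Of the 12 cap-binding and eIF4 genes, 0 had an unadjusted p below 0.05 and 8 had a fold change below 0, beside 50.5% of all genes. Eif4e stood at 6.35, 6.46 and 6.62 in controls and 6.51, 6.59 and 6.68 in MSUS, a difference of 0.13 (SE 0.06, limma adjusted p = 0.878) with all 7 MSUS animals above the control mean. The eIF4G scaffolds differed by 0.15 for Eif4g1 (SE 0.09), 0.11 for Eif4g3 (SE 0.09) and -0.08 for Eif4g2 (SE 0.04). The RNA helicases that unwind the leader gave -0.02 for Eif4a1 (SE 0.08) and -0.17 for Eif4a2 (SE 0.14). Eif4a2 varied more between animals, from 7.60 to 8.62 in MSUS.

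The 3 eIF4E-binding repressors in the fit, Eif4ebp1, Eif4ebp2 and Eif4enif1, had differences of -0.18, -0.07 and -0.01, each smaller than its SE. Eif4ebp2 was the abundant 4E-BP, with 92.5 ± 12.8 CPM in controls against 4.86 ± 1.37 for Eif4ebp1.

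Among the 10 genes of start codon selection and the eIF2 complex, 0 had an unadjusted p below 0.05. Eif1, the start codon gatekeeper, stood at 7.32 to 7.57 in controls and 7.32 to 7.51 in MSUS (difference -0.03, SE 0.06), and Eif5, which triggers GTP hydrolysis on eIF2, differed by 0.07 (SE 0.09). Eif1ax, which helps the small subunit scan, differed by -0.06 (SE 0.09). The lowest values in this group were Eif2a (-0.20, SE 0.11) and Eif1b (-0.16, SE 0.09).

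The 4 eIF2 kinases and 5 eIF2B subunits also gave 0 members with an unadjusted p below 0.05. The kinase for nutrient shortage, Eif2ak4 (GCN2), differed by 0.18 (SE 0.11), the kinase for endoplasmic reticulum stress, Eif2ak3 (PERK), by 0.19 (SE 0.14), the double-stranded RNA sensor Eif2ak2 (PKR) by 0.05 (SE 0.10) and the heme-regulated Eif2ak1 by -0.04 (SE 0.06). Of eIF2B, the exchange factor for eIF2, the catalytic subunit Eif2b5 stood at 5.49, 5.60 and 5.78 in controls and 5.22, 5.44 and 5.77 in MSUS, with 5 of 7 MSUS animals below every control. Its difference was -0.17 (SE 0.08), and that of the regulatory subunit Eif2b1 was -0.19 (SE 0.10), both with a limma adjusted p of 0.878.

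The transcript levels of 2 related genes can be set against each other, and a ratio inside 1 library does not depend on scaling. In these bulk libraries the 2 transcripts may come from different cells, which was not tested. The log2 difference Eif4e minus Eif4e2 was -0.32, -0.28 and -0.18 in controls (lowest, median, highest) and -0.20, -0.12 and 0.11 in MSUS. All 7 MSUS animals were above the control mean and 6 were above every control. The mean shift was 0.20, with an exact two-sided permutation p of 0.00291 and a Benjamini-Hochberg value of 0.0175 over the 6 pairs examined. The groups overlapped through control 9 alone, which stood apart from the other controls. Leaving out 1 animal at a time gave shifts of 0.17 to 0.22 and exact permutation p-values of 0.00216 to 0.00884.

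**Figure D3:**
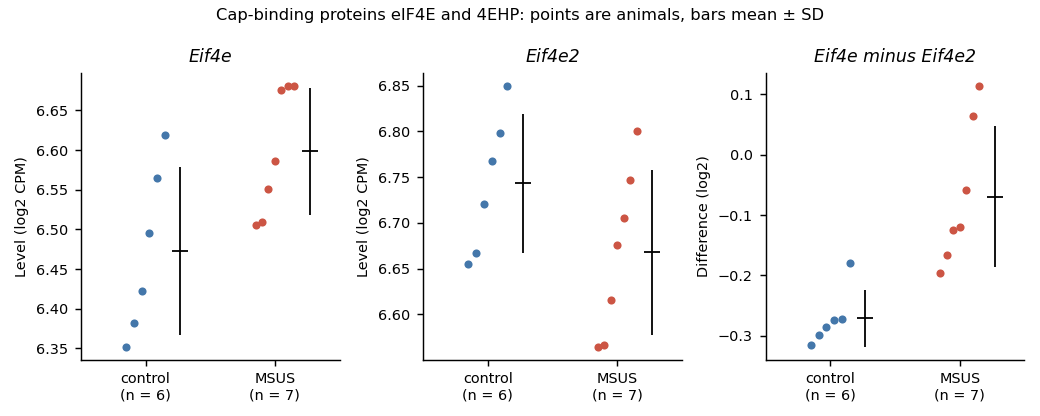
Eif4e (left) and Eif4e2 (middle) in log2 CPM and their log2 difference (right) in 6 control and 7 MSUS animals; points are animals and bars the mean ± SD. Each gene alone overlaps between groups, and the difference lies at -0.32 to -0.18 in controls and -0.20 to 0.11 in MSUS.

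The other pairs did not pass. Eif4g1 minus Eif4g2 was -1.52 to -0.89 in controls and -1.16 to -0.71 in MSUS, a shift of 0.23 with all 7 MSUS animals above the control mean (exact permutation p = 0.0944, adjusted 0.283). Eif4a1 minus Eif4a2 shifted by 0.15 (exact permutation p = 0.358), Eif5a minus Eif5a2 by -0.09 (exact permutation p = 0.691) and Eif4ebp1 minus Eif4ebp2 by -0.08 (exact permutation p = 0.719). Eef1a1 minus Eef1a2 was computed but cannot be read, since Eef1a2 was at or near 0.

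Next, the members were set against the ribosomal protein genes of the same library. A score was formed from 78 of 79 cytosolic ribosomal protein genes, as the mean deviation of their log2 CPM from each gene's mean over the libraries. Controls spanned -0.12 to 0.23 and MSUS animals -0.33 to 0.14, and the groups differed by -0.11 (exact permutation p = 0.189), which became -0.06 without MSUS 26. MSUS 26 was lowest and control 24 highest. Each gene's slope on this score was fitted together with the group. That members follow the ribosomal protein genes was known from earlier results of these data, so the slopes describe that relation and are no independent support for it.

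Of the 64 members, 45 had a slope above 0, against 50.7% of all genes, and the median slope was 0.31 against 0.01. A slope of 1 means that the gene changed as much as the average ribosomal protein gene. With adjustment over all genes (limma), 3 members had a positive slope, against 1.16% of all genes, and 0 a negative one, against 2.67%. With an unadjusted p below 0.05 there were 15 positive slopes (7.07% of all genes) and 5 negative ones (10.5%).

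The 3 members were Eef1a1 (slope 0.88, SE 0.15, adjusted p = 0.00728), Eif5a (0.85, SE 0.18, adjusted p = 0.0137) and Eif3h (0.96, SE 0.20, adjusted p = 0.0142), an MPN-domain subunit of eIF3. All 6 elongation factors in the fit had positive slopes, from 0.23 (Eef2) to 0.88 (Eef1b2), with a median of 0.83. The 8 members on the TOP mRNA list (Eef1a1, Eef1b2, Eef1d, Eef1g, Eef2, Eif3e, Eif3f and Eif3h) were likewise all positive, median 0.85, while the other 56 members had a median of 0.23. The median transcript length was 1901.5 bases on the TOP list and 2632 in the others. The part of length in this gap was not tested. Eef2 and Eif3e (0.03, SE 0.25) were the lowest of this list. Eif6 had a slope of 0.96 (SE 0.27, adjusted p = 0.0620), and the largest slope of all, 2.15 for Eif4e3, came with an SE of 1.70 on 4 to 23 counts.

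The 5 members with a negative slope and an unadjusted p below 0.05 were the scaffolds Eif4g1 (-0.81, SE 0.29), Eif4g3 (-0.85, SE 0.25) and Eif3a (-0.61, SE 0.19) and the kinases Eif2ak2 (-0.90, SE 0.33) and Eif2ak4 (-0.89, SE 0.37). None passed adjustment with all 13 animals in this fit. The 3 repressors of eIF4E were all negative, from -0.995 (Eif4ebp1, SE 0.82) to -0.29 (Eif4ebp2, SE 0.34), and Eif4e1b, an oocyte form of eIF4E, was lowest at -1.13 with an SE of 1.27. Within eIF3 the members parted: 11 of 14 slopes were above 0, and the 3 below 0 were Eif3a, Eif3b (-0.03, SE 0.17) and Eif3c (-0.12, SE 0.17), which are the largest subunits.

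**Figure D4:**
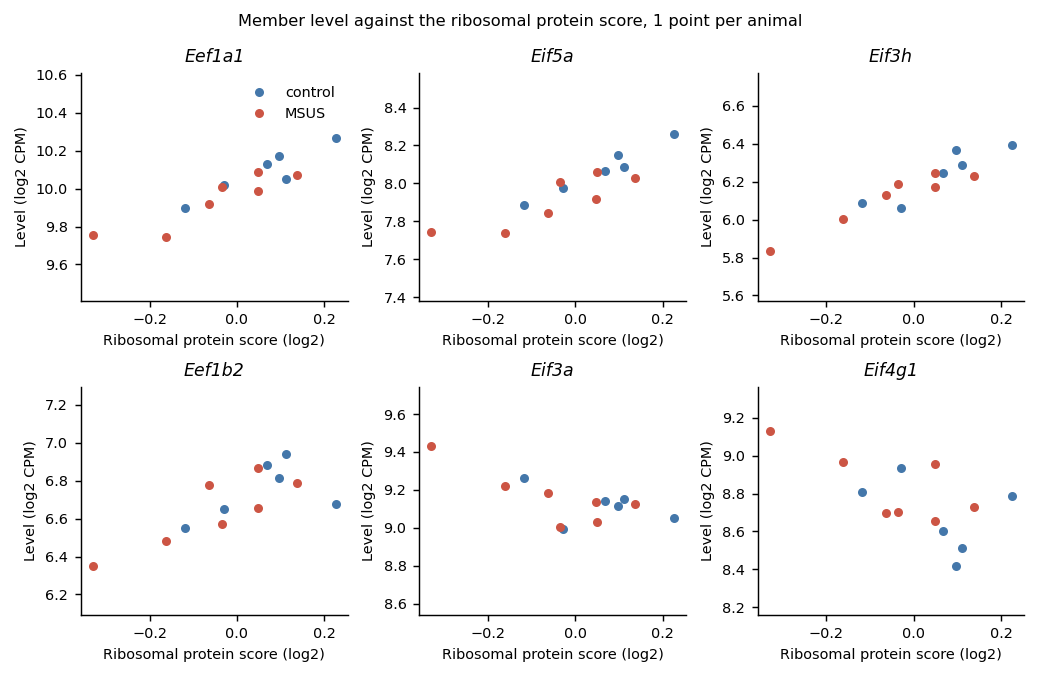
Level in log2 CPM (y axis, each panel spanning 1.2 units) against the ribosomal protein score in log2 units (x axis) for 6 members, with 1 point per animal (blue: control, red: MSUS). Eef1a1, Eif5a, Eif3h and Eef1b2 rise with the score, Eif3a and Eif4g1 fall, and MSUS 26 is the point at -0.33.

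With 1 animal left out at a time, the slopes were 0.81 to 1.03 for Eef1a1, 0.79 to 1.03 for Eif5a and 0.91 to 1.04 for Eif3h, and the calls after adjustment depended on single libraries. Without MSUS 26, 0 members passed, with slopes of 1.03 (Eef1a1), 1.03 (Eif5a) and 0.94 (Eif3h), and among all genes 2 positive and 1 negative slopes passed in place of 167 and 385. Without control 10, Eef1a1 was the only member that passed, beside 0.144% of all genes with positive and 0.44% with negative slopes. Without control 24, 7 members passed, the negative slopes of Eif4g1 and Eif4g3 among them, beside 1.03% and 3.73%. Without MSUS 1 there were 6, Eif4g3 among them, beside 1.95% and 3.51%.

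The ribosomal protein score moved with transcript length and with signs of the RNA's makeup. A length index, the mean deviation of short coding genes (lowest quartile of transcript lengths, up to 2008 bases) minus that of long ones (highest quartile, from 4740 bases), leaving out ribosomal protein genes and members, had Pearson's r of 0.91 with the score over the 13 libraries. Its permutation p was 4e-05, adjusted 0.00032 over 8 measures, Spearman's rho was 0.78 (permutation p = 0.00211), r was 0.93 within controls and 0.91 within MSUS, and 0.76 without MSUS 26 and MSUS 5. Malat1, a long noncoding RNA kept in the nucleus, had r = -0.81 (adjusted permutation p = 0.00352; rho -0.86, permutation p = 0.00034), and -0.72 without these animals. The share of mitochondrial transcripts had r = -0.72 (adjusted permutation p = 0.0133; rho -0.75, permutation p = 0.00402), and -0.57 without them. The Sertoli marker level had r = 0.58 (rho 0.60, permutation p = 0.0339 and 0.0329, adjusted 0.0678), 0.98 within controls and 0.29 within MSUS, and 0.56 without MSUS 26 and MSUS 5. The total count had r = -0.37 (rho -0.42, permutation p = 0.214 and 0.155, adjusted 0.245), -0.92 within controls and -0.29 within MSUS, and -0.57 without these animals. The spermatid and spermatocyte levels and the share of unnamed features had r of 0.39, 0.40 and -0.05, with adjusted permutation p-values from 0.245 to 0.859. For the elongated spermatid level r was -0.0014 within controls, 0.75 within MSUS and -0.13 without MSUS 26 and MSUS 5. For the spermatocyte level these were 0.08, 0.48 and 0.07, and for the unnamed share -0.50, 0.33 and -0.20.

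Between groups, Malat1 was at 9.16 to 10.69 log2 CPM in controls and 10.16 to 11.28 in MSUS, a difference of 0.70 (exact permutation p = 0.0274). This p was not adjusted, and it was the smallest among the library totals, shares, scores and marker levels compared in this way. Mitochondrial transcripts took 1.26% to 2.48% of named counts in controls and 1.80% to 3.16% in MSUS (exact permutation p = 0.111), and the length index differed by -0.09 (exact permutation p = 0.336). When the level of Malat1 was added to the comparison of groups, the differences of Eef1a1 and Eif5a became 0.03 and 0.01. The part of these measures in the members' values was not tested beyond such fits.

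Among the members themselves, shorter transcripts had higher slopes, with Spearman's rho of -0.65 between slope and transcript length over 64 members and -0.53 over 12942 other coding genes, where genes share libraries and are not replicates. The 11 members under 1.5 kb had slopes above 0 throughout, with a median of 0.63 beside 0.62 for the 1816 other coding genes of that length. From 1.5 to 2.5 kb the 17 members had a median of 0.43 beside 0.28, and from 2.5 to 4 kb the 19 members had 0.41 beside -0.02. Over 4 kb the 17 members had -0.33 beside -0.43, with 4 of 17 above 0. The members' medians were thus close to those of other genes in the shortest and longest classes and above them in between, and no test was made of these gaps. With the length index added to the fit, the slopes of Eef1a1, Eif5a and Eif3h were 0.49, 0.46 and 0.72, and 0 members and 0 of all genes passed adjustment.

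**Figure D5:**
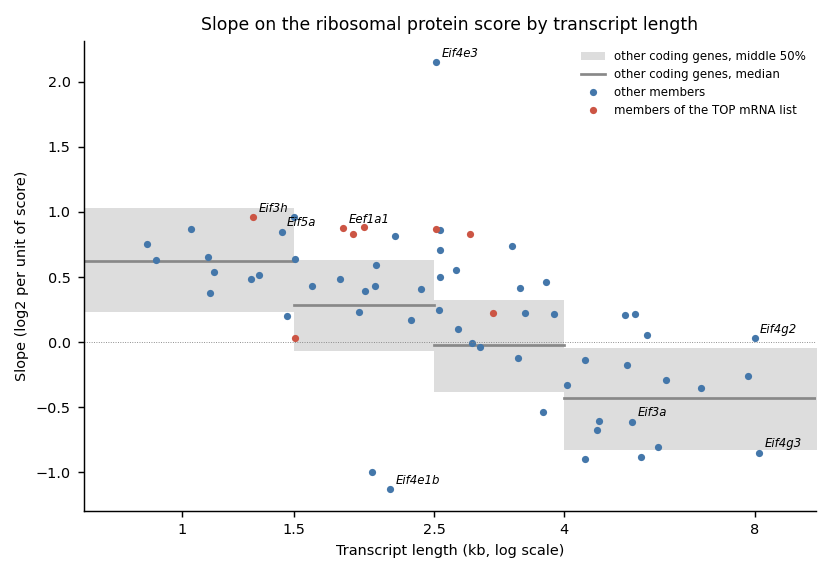
Slope on the ribosomal protein score (log2 per unit of score) against transcript length (kb, log scale) for the 64 members; red points are the 8 members of the TOP mRNA list, blue points the other members, grey lines and boxes the median and middle 50% of other coding genes in 4 length classes. Slopes go down with length in members and other genes alike, from medians of 0.63 and 0.62 under 1.5 kb to -0.33 and -0.43 over 4 kb.

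Other genes of protein synthesis were read from lists set by symbol. At an unadjusted p below 0.05 stood 5.42% of all genes tested, 3.02% higher and 2.4% lower. Of the 78 ribosomal protein genes tested, 13 were below 0.05, all lower in MSUS, with a median of -0.11. The smallest p was that of Rpl7 (-0.22, SE 0.08, limma adjusted p = 0.878). All 78 had a positive slope on the score they form, and that score did not pass 0.05 between groups (-0.11, exact permutation p = 0.189). Among 16 accessory initiation factors, 1 was below 0.05, Pabpc4, a poly(A)-binding protein (-0.19, SE 0.07), with 6 of 7 MSUS animals below every control. Among 20 cytosolic tRNA synthetases, which charge tRNAs with amino acids, 1 was below 0.05, Farsb (-0.20, SE 0.09). The 13 tested targets of the integrated stress response, the transcripts induced when eIF2 is phosphorylated, held 1, Asns (asparagine synthetase, -0.16, SE 0.08), and had a median of -0.03.

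The 16 genes of the mTORC1 pathway, the kinase complex that controls TOP mRNAs and the 4E-BPs, had a median of 0.08 with 1 gene below 0.05, Rptor, the subunit that recruits substrates (0.23, SE 0.10). The 8 termination and recycling factors had 1, Gspt2 (eRF3b, 0.18, SE 0.09), and the 7 genes for diphthamide, the modified histidine of eEF2, had 0, with the smallest p for Dnajc24 (0.13, SE 0.16). Over all genes tested, 3.02% were higher and 2.4% lower at an unadjusted p below 0.05. None of these lists had a gene that passed adjustment between groups (limma). On the ribosomal protein score, 43 of the 78 ribosomal protein genes passed with positive slopes, but they form the score. Mtor (-1.11) and Larp1 (-1.09), which encodes the TOP-binding repressor, passed with negative slopes, as did 2.67% of all genes. Phgdh (0.83), an enzyme of serine synthesis from the stress response list, passed with a positive one, as did 1.16%. The mTORC1 genes had a median transcript length of 4820.5 bases, and other coding genes over 4 kb had a median slope of -0.43. Among all genes, 2 positive and 1 negative slopes passed without MSUS 26, and 0 with the length index added.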

How the data were processed

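The authors trimmed reads (Trim Galore 0.6.5) and assigned them to GENCODE transcripts with Salmon 1.1.0, from libraries made from 5 ng RNA with a stranded total RNA kit, and deposited estimated counts per gene with no normalization. How transcripts were summed to genes and named is not given in the sources used here. The 27170 features with no gene name (20.7% to 26.7% of counts per library) were left out. Counts were rounded and tested with limma 3.58.1 (voom, TMM and filterByExpr of edgeR 4.0.16, R 4.3.3), because the study's methods state this test, with Benjamini-Hochberg adjustment over 14421 genes. Levels are given as log2 CPM (prior count 2). DESeq2 1.42.0 and edgeR's quasi-likelihood test were alternatives. The scripts were tested on simulated data. For abundant members the spread between animals limits precision, and for those with few (Eif4e3, Eif4e1b, Eif5a2) counting error does too.

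Ratios and scores were compared by exact two-sided permutation over 1716 splits (smallest p 0.000583), and correlations with 1e+05 permutations. All tests treat animals as independent, although the paper assigned breeding pairs, and not single pups, to the groups. Transcript lengths are the longest basic coding transcript of GENCODE on GRCm38. Genes named are, by rule, the 3 highest of each role, the 6 smallest p-values, every p below 0.05, both genes of each pair, the 3 largest and 3 smallest slopes, and the smallest p of each related list. Others (Eif3e, Eif3f, Eif3g, Eif3j1, Eif3l, Eif2a, Eif1b, Eif2ak3, Eef1b2, Eef1g, Mtor, Larp1, Phgdh, Eef1akmt4) were chosen after their values were seen. The members and lists were chosen with earlier results of these data known. Litter and cage were not used here.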

Additional observations from a re-analysis of the deposited data

Results flagged for a closer look

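In 82 groups of values (35 genes, 5 ratios and the ribosomal protein score, each in controls and in MSUS), 5 held 1 animal set apart from the rest of its group by Dixon's gap at the 95% level, which chance gives in about 1 of 20 groups. Eef2kmt was at 4.79 log2 CPM in control 10, with the other controls at 5.22 to 5.37. Eif4a2 was at 8.62 in MSUS 23, with the other MSUS animals at 7.60 to 7.99. Eif4g2 was at 9.82 in control 22 (others 9.90 to 9.95), and Eif5 at 7.35 in control 24 (others 7.65 to 7.82). The log2 difference Eif4e minus Eif4e2 was -0.18 in control 9, with the other controls at -0.32 to -0.27.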

How the results depend on the processing

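The fits with the length index or the level of Malat1 and the adjusted ratios were chosen after seeing the data. The number of members with an unadjusted p below 0.05 between groups was 3, beside 5.42% of all genes. It became 6 with library size alone (5.51% of all genes), 5 with no count filter (4.99%) and 6 with sample quality weights (7.25%). It was 1 with the ribosomal protein score as covariate (3.68%), 8 with the elongated spermatid score (8.35%) and 1 with Malat1 (2.78%). Leaving out 1 animal gave 0 to 7 members, beside 3.74% to 7.7% of all genes. The count after adjustment was 0 in every one of these fits. The number of members with a slope past adjustment was 3, and became 5 with library size alone (the negative slope of Eif3a among them; 143 positive and 629 negative among all genes), 6 with quality weights (Eif4g3 negative; 277 and 538), 10 with no group term (Eif4g1 and Eif4g3 negative; 313 and 668) and 0 with the length index (0 of all genes), where 1 member had a positive slope with an unadjusted p below 0.05; leaving out 1 animal gave 0 to 7. Over all genes, library size alone turned 435 higher and 346 lower genes at an unadjusted p below 0.05 into 325 and 469, and moved the median fold change to -0.02.

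Fold changes near 0 took the other sign in places. For Eef1d this was -0.013 with library size alone, -0.00064 with no filter, -0.0032 with unnamed features kept and -0.097 with the spermatid score, and -0.063 to 0.093 over single animals left out. Eif4a1 came to 0.0096 with quality weights (-0.052 to 0.042 over animals left out) and Eif4enif1 to 0.0026 with quality weights, 0.025 with the spermatid score and 0.0034 in DESeq2 (-0.043 to 0.042 over animals left out). With the ribosomal protein score, the values were -0.046 for Eef1aknmt, 0.067 for Eef2kmt, 0.028 for Eif1, -0.036 for Eif2ak2, -0.022 for Eif3a, 0.037 for Eif4a1, 0.024 for Eif4e3 and 0.058 for Eif6. With the length index they were -0.038 for Eef1aknmt, 0.041 for Eef2kmt, 0.012 for Eif1, -0.0016 for Eif2ak2, -0.016 for Eif3a and 0.029 for Eif6. With Malat1 they were 0.025 for Eef1a1, -0.12 for Eef1aknmt, 0.13 for Eef2kmt, 0.073 for Eif1, 0.0073 for Eif1ax, -0.077 for Eif2ak2, -0.057 for Eif3a, 0.039 for Eif3h, 0.038 for Eif4a1, -0.057 for Eif4e1b, 0.071 for Eif4e3, -0.046 for Eif4g3, -0.016 for Eif5, 0.0059 for Eif5a and 0.10 for Eif6, and the members' median was 0.01. Over single animals left out, Eef1aknmt ranged over -0.035 to 0.10, Eef2kmt over -0.12 to 0.020, Eif4e3 over -0.54 to 0.014, Eif2ak2 over -0.0034 to 0.13 and Eif6 over -0.088 to 0.00039. With the length index, the slopes of Eif4e3 and Eif4ebp1 were -0.075 and 2.07. The cause of these shifts was not tested.

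The ratio Eif4e minus Eif4e2 kept its direction and an exact permutation p below 0.05 in the alternatives run for ratios, with shifts of 0.17 to 0.22. These were a changed prior count, the ribosomal protein score or the length index removed within groups, and 1 animal left out at a time. Ratios with the level of Malat1 or the elongated spermatid score removed were not computed. Eif4g1 minus Eif4g2 ranged over 0.18 to 0.30 with 1 animal left out, passing 0.05 without control 22 alone, and was 0.14 with the ribosomal protein score removed and 0.16 with the length index removed. The group difference of the ribosomal protein score was -0.15 to -0.06 over animals left out. Eif5a minus Eif5a2 ranged over -0.21 to 0.042, and was 0.024 with the ribosomal protein score removed, and Eif4ebp1 minus Eif4ebp2 ranged over -0.19 to 0.052. No paired analysis was possible because no animal number occurs in both groups. Litter and cage were not used here.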
